A study of Homo sapiens with 19 samples.

Results

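The exons of 4 genes of vesicle transport, EXOC1, EXOC7, SEC31A and SEC16A, were followed through an epithelial-mesenchymal transition (EMT) and through depletion of the RNA-binding protein AKAP8. Every row of 15 splicing tables that carried the symbol of one of these genes was taken, with no choice among rows by their values. The 4 genes themselves were chosen with earlier results of these data known. This gave 233 of 218798 rows. These rows described 96 of 100239 distinct splicing events, 44 in SEC31A, 26 in SEC16A, 16 in EXOC7 and 10 in EXOC1, and 4 of 11998 genes. SEC31A lies at chr4:83739662-83822319, SEC16A at chr9:139334548-139378211 and EXOC7 at chr17:74077097-74117657, all on the minus strand, and EXOC1 lies at chr4:56719814-56771252 on the plus strand (GRCh37). Deposited AKAP8 binding peaks over the same genes were added.

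The cells were HMLE/Twist-ER, an immortalized human mammary epithelial line whose EMT factor Twist is joined to a receptor domain that tamoxifen activates. Untreated cells stood for the epithelial state (EPI), and cells kept in 20 nM tamoxifen until they looked mesenchymal stood for the mesenchymal state (MES). Each state was sequenced with a non-specific shRNA (EPI_Control, n = 3, and MES_Control, n = 3) and with an shRNA against AKAP8 (EPI_shAKAP8, n = 3, and MES_shAKAP8, n = 2), both carried stably by lentivirus. AKAP8 binding was mapped by eCLIP, in which RNA crosslinked to the protein is precipitated and sequenced beside its input, with 2 precipitates and 2 inputs in each state. All groups therefore carried the Twist fusion, and all RNA-seq groups an shRNA. Both states came from 1 cell line, and effects of tamoxifen itself cannot be told apart from those of EMT.

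The exocyst is a complex of subunits that tethers secretory vesicles to the plasma membrane before they fuse. EXOC1 is one of its core subunits, and EXOC7 (Exo70) binds membrane lipids and helps to bring the complex to the cell surface. The COPII coat works at the other end of the secretory route, where it buds vesicles from exit sites of the endoplasmic reticulum. SEC31A forms the outer cage of that coat together with SEC13, and SEC16A is the scaffold on which exit sites assemble.

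The results turned on few exons, whose sequences are shown so that their lengths, reading frames and splice sites can be seen. Exon bases are in capitals, and the 20 intron bases on each side are in lower case, read 5′ to 3′ on the transcribed strand of GRCh37. In EXOC7 (minus strand) these were a 93-nt exon at chr17:74087224-74087316 and, downstream of it, a 69-nt exon at chr17:74086410-74086478. In SEC31A (minus strand) they were a 39-nt exon at chr4:83783687-83783725 and a 78-nt exon at chr4:83782784-83782861.
EXOC7 93-nt exon: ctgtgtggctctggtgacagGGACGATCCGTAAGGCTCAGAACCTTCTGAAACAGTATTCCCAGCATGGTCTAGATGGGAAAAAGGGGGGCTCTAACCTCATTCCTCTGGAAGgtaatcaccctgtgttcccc
EXOC7 69-nt exon: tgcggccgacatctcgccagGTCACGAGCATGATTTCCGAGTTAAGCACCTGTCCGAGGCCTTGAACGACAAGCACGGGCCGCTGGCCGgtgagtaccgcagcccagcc
SEC31A 39-nt exon: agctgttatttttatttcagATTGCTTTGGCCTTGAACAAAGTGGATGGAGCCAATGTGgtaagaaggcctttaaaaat
SEC31A 78-nt exon: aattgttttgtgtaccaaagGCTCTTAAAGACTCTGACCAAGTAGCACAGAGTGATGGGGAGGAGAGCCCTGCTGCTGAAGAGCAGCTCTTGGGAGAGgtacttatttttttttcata

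A second variable stretch of SEC31A held an exon in 2 lengths, 342 nt at chr4:83763293-83763634 and 297 nt at chr4:83763338-83763634, which share the 3′ splice site and differ in the 5′ splice site. The line for it gives the last 20 shared bases in lower case, the 45 bases that only the long form holds in capitals, and 20 intron bases. In SEC16A (minus strand) a 60-nt exon lay at chr9:139339504-139339563, and in EXOC1 (plus strand) a 45-nt exon lay at chr4:56755054-56755098, both printed as above.
SEC31A end of the 342-nt exon: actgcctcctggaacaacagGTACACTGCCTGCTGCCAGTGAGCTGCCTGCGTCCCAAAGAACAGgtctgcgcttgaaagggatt
SEC16A 60-nt exon: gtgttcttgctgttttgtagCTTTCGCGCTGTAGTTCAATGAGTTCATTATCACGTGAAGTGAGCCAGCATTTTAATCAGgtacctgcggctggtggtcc
EXOC1 45-nt exon: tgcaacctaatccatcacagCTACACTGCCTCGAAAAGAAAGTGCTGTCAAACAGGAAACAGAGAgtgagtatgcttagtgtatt

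Each of these exons is flanked by AG and GT, and each length is a multiple of 3, so that inclusion adds codons without shifting the frame. In Gencode v44 the 93-nt exon of EXOC7 was wholly coding in 7 of 21 transcripts of the gene and the 69-nt exon in 3. The 39-nt and the 78-nt exon of SEC31A were each wholly coding in 10 of 41 transcripts, the 342-nt form in 6 and the 297-nt form in 4. The SEC16A exon was coding in 5 of 15 transcripts and the EXOC1 exon in 2 of 8.

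Inclusion was expressed as percent spliced in (PSI), the share of the junction reads, divided by effective length, that support the inclusion form. A short read shows 1 junction and not the whole transcript, so the inclusion reads of an exon can also come from transcripts that hold a neighbouring variable exon, and an event is described by the flanking exons it is read between. The SE (skipped exon) tables held 31258177 to 40852217 junction reads per library, a read counting once for each event that it supports. Summed over the SE events shared by all comparisons, a library held 10696 to 38391 such reads of SEC31A, 2367 to 5407 of SEC16A, 1318 to 2071 of EXOC7 and 583 to 1560 of EXOC1. AKAP8 junction reads in the knockdown libraries were 37.1% to 46.9% of the control mean in EPI and 39.3% to 44.3% in MES. Of the epithelial markers, 5 of 9 had a value and all 5 fell in MES, and of the mesenchymal markers 7 of 10 had a value and all 7 rose. In bulk RNA, fewer cells with a transcript form and less of that form per cell cannot be told apart.

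EMT changed the splicing of EXOC7 and SEC31A, and no tested event of EXOC1 or SEC16A was called. An event was called where the adjusted p was under 0.05 and PSI differed by at least 10 percentage points, and events that averaged under 20 junction reads in a library were not tested. In control cells 9 of 72 tested events of the 4 genes were called (12.5%), against 1.52% of all events tested. The 4 genes were chosen with earlier results of these data known, so the shares describe them and do not test them as a set. The 9 calls were 4 of 14 events in EXOC7 and 5 of 33 in SEC31A, while 0 of 5 in EXOC1 and 0 of 20 in SEC16A were called. They fell into 3 stretches within which events share exons and junction reads, chr17:74085256-74090662 in EXOC7 and chr4:83750153-83772757 and chr4:83778842-83784545 in SEC31A, so they are not 9 separate observations. With limma on the logit of the inclusion read share, not divided by effective length, 2 of the 9 were called, both of the EXOC7 93-nt exon. The other 7 were not, at adjusted p from 0.0759 to 0.169. PSI of the EPI and MES control libraries did not overlap for 18 of the 72 events (25.0%), against 12.6% of all events.

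The 93-nt exon of EXOC7 was rarely used in EPI and was used more in MES. Read between the 168-nt and the 146-nt exon, against their direct joining, its PSI was 4.26%, 2.59% and 1.41% in EPI_Control and 22.7%, 20.5% and 9.54% in MES_Control. The lowest MES library lay above the highest EPI library, and the skipping junction prevailed in both states. The mean went from 2.75% ± 1.43 (SD, n = 3) to 17.6% ± 7.04 (SD, n = 3), a difference of 14.8 percentage points (standard error 4.15, adjusted p = 5.2e-08 in the limma-moderated quasi-binomial test).

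Read between the 168-nt and the 69-nt exon, against the direct joining of these, the 93-nt exon went from the minor to the major form. Its PSI was 22.0%, 8.76% and 9.84% in EPI_Control, on 17, 32 and 23 junction reads. In MES_Control it was 95.8%, 83.1% and 95.2%, on 91, 84 and 39 reads. The groups stood far apart, with a difference of 77.8 percentage points (standard error 5.94, adjusted p = 2.97e-13), the largest of any tested event of the 4 genes in these comparisons. The EPI side of that value rested on few reads, and the junction of the 168-nt to the 93-nt exon counts as inclusion in both events of the exon.

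When the 93-nt exon was set against the 69-nt exon as mutually exclusive alternatives, the share of the 93-nt form was 44.9%, 11.9% and 9.33% in EPI_Control and 62.2%, 69.6% and 79.3% in MES_Control. The groups did not overlap, although 1 EPI library lay closer to the MES libraries than to the other two. The difference was 48.3 percentage points (standard error 12.5, adjusted p = 2.02e-06). The 69-nt exon itself, read between the 168-nt and the 146-nt exon, differed by -1.97 percentage points in EMT (standard error 4.9, adjusted p = 0.728), with the groups overlapping.

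The fourth call in EXOC7 concerned the 3′ splice site downstream of the 93-nt exon, where a 153-nt form extends the 69-nt exon upstream. PSI of the 153-nt form was 100%, 89.7% and 62.0% in EPI_Control and 3.19%, 25.2% and 14.5% in MES_Control. The groups did not overlap, but the EPI libraries held only 5, 17 and 8 reads of this event. The difference was -69.6 percentage points (standard error 13, adjusted p = 0.00917). This call was lost when EPI_Control replicate 2 was left out (-66.7 percentage points, adjusted p = 0.20). Without any 1 of the MES_Control libraries the event fell under the 20-read minimum and was not tested.

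**Figure D1:**
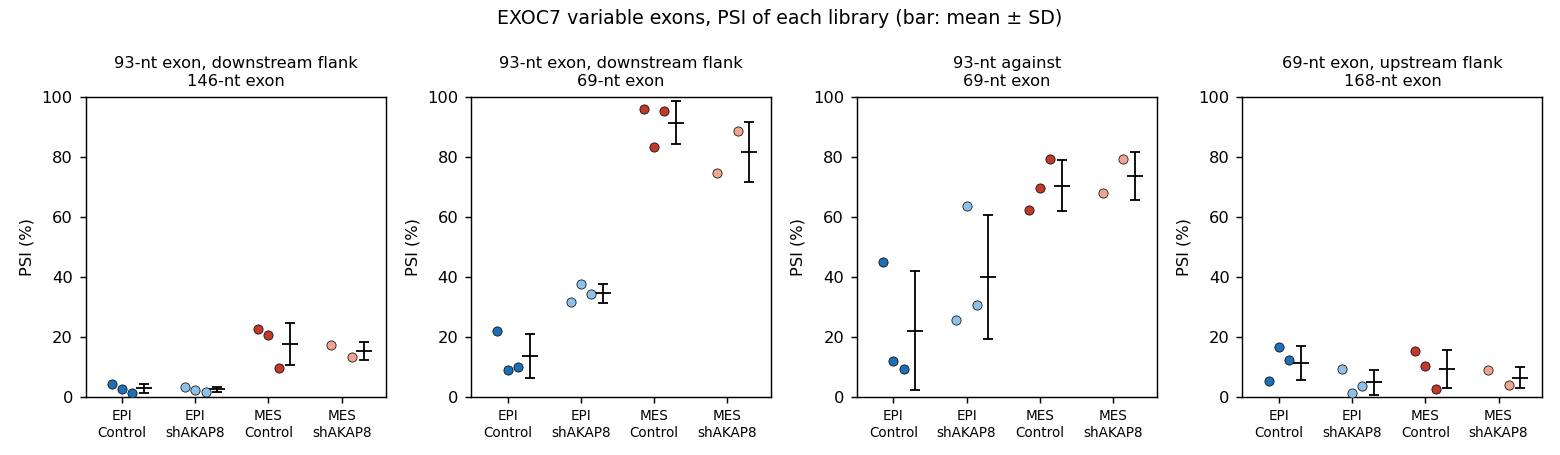
PSI in percent (y axis) of 4 EXOC7 events in each library, by RNA-seq group (x axis), with the group mean ± SD beside the points. The 3 MES_Control points sit above the 3 EPI_Control points in the first 3 panels, from 2.75% to 17.6%, 13.5% to 91.4% and 22.0% to 70.3% on average, and overlap them in the last panel.

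In SEC31A, EMT lowered the use of one exon and raised the use of a pair of short exons farther upstream in the transcript. PSI of the 342-nt exon was 65.4%, 67.4% and 69.3% in EPI_Control and 41.3%, 34.0% and 39.6% in MES_Control. All EPI libraries lay above all MES libraries, and the spread within each state was small beside the gap. The mean went from 67.4% ± 1.93 to 38.3% ± 3.79 (SD, n = 3 each), a difference of -29.1 percentage points (standard error 2.46, adjusted p = 2.24e-12).

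The 297-nt form of the same exon gave nearly the same picture. It shares with the long form the skipping reads and the inclusion reads at the 3′ splice site. PSI of the 297-nt form is therefore not the share of transcripts that hold it. Its PSI was 55.7%, 60.2% and 61.8% in EPI_Control and 31.6%, 26.3% and 32.1% in MES_Control, a difference of -29.2 percentage points (standard error 2.61, adjusted p = 2.78e-11). Some events of the same stretches that were not called are given too, chosen after their values were seen. The choice between both lengths differed by -0.173 percentage points between the states (adjusted p = 0.96), with the long form at 81.7% in EPI_Control and 81.5% in MES_Control. A mutually exclusive event over the same stretch gave the share of a 174-nt exon (chr4:83769957-83770130) against a 124-nt exon (chr4:83765539-83765662) as 81.0%, 82.4% and 84.9% in EPI_Control and 72.1%, 65.0% and 68.4% in MES_Control. It fell by 14.3 percentage points (standard error 2.33, adjusted p = 3.78e-08), and the 124-nt form uses the junction that skips the 342-nt exon.

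The 39-nt and the 78-nt exon of SEC31A are neighbours, and both were used more in MES. Against the junction that skips both, PSI of the 39-nt exon was 16.6%, 20.8% and 24.9% in EPI_Control and 53.2%, 48.9% and 37.7% in MES_Control, a difference of 25.8 percentage points (standard error 5.2, adjusted p = 1.74e-12). Against the same junction, PSI of the 78-nt exon was 16.7%, 15.5% and 21.3% in EPI_Control and 47.8%, 38.6% and 36.5% in MES_Control, a difference of 23.1 percentage points (standard error 3.89, adjusted p = 1.55e-11). Neither exon had overlapping groups, and neither value says whether the other short exon was present.

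The reads also bear on how both short exons were combined. Of the inclusion reads of the 39-nt exon, 36.5%, 52.5% and 47.3% in EPI_Control and 40.2%, 40.3% and 33.1% in MES_Control joined it directly to the exon beyond the 78-nt exon. Inclusion reads cover the junctions on both sides of the 39-nt exon, so this is not the share of transcripts that lack the 78-nt exon. Read downstream of the 39-nt exon, PSI of the 78-nt exon was 80.3%, 66.5% and 73.4% in EPI_Control and 79.5%, 77.6% and 83.8% in MES_Control, with overlap. Read upstream of the 78-nt exon, against the junction that enters the 78-nt exon directly, PSI of the 39-nt exon was 89.3% on average in EPI_Control and 97.5% in MES_Control, a difference of 8.22 percentage points (adjusted p = 4.04e-05) that stayed under the 10-point threshold. The share of the 39-nt against the 78-nt exon, counted by rMATS as mutually exclusive, was 54.5% in EPI_Control and 55.7% in MES_Control, and differed by 1.11 percentage points (adjusted p = 0.899).

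**Figure D2:**
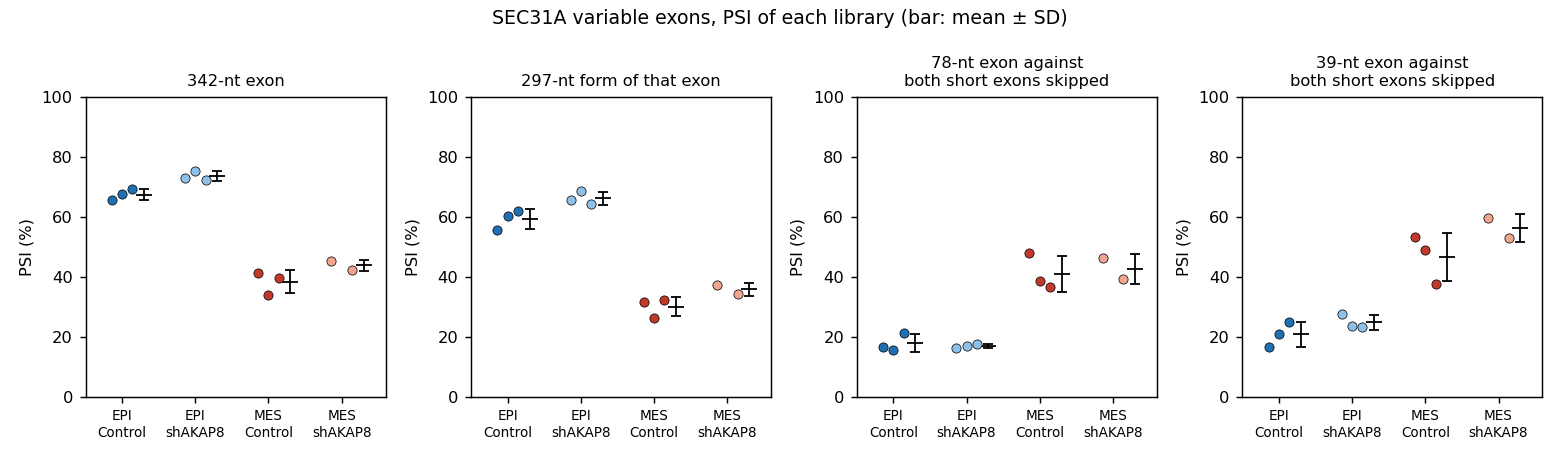
PSI in percent (y axis) of 4 SEC31A events in each library, by RNA-seq group (x axis), with the group mean ± SD beside the points. The MES_Control points lie below the EPI_Control points for the 342-nt and 297-nt forms and above them for the 78-nt and 39-nt exons, with no overlap in any of the 4 panels.

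In SEC16A and EXOC1 no event passed the test in EMT. PSI of the 60-nt exon of SEC16A was 74.4%, 75.3% and 66.6% in EPI_Control and 53.3%, 68.9% and 61.7% in MES_Control, so that the groups overlapped, and the difference was -10.8 percentage points (standard error 5.29, adjusted p = 0.485). The nearest SEC16A event to a call, chosen after its values were seen, was the share of an 83-nt exon (chr9:139347880-139347962) against a 153-nt exon (chr9:139345708-139345860), at -9.73 percentage points (standard error 3.92, adjusted p = 0.0652), which passed the thresholds once EPI_Control replicate 3 or MES_Control replicate 3 was left out. PSI of the 45-nt exon of EXOC1 was 11.2%, 5.25% and 15.5% in EPI_Control and 15.1%, 16.5% and 7.87% in MES_Control, a difference of 2.51 percentage points (standard error 3.99, adjusted p = 0.916). The other EXOC1 events tested in EMT differed by -0.352 to 0.0727 percentage points.

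The remaining tested events were mostly near constant. In EMT the 27 of SEC31A that were not named by rule differed by -4.03 to 8.22 percentage points, 25 of them by under 5, and the 19 of SEC16A by -9.73 to 6.74. The 9 of EXOC7 differed by -24.3 to 0.597, the lowest being the 153-nt form read as a skipped exon (adjusted p = 0.584). Mean PSI over the RNA-seq groups, knockdown included, was above 95% for 16 of the 33 tested events of SEC31A, 12 of 20 of SEC16A, 5 of 14 of EXOC7 and 3 of 5 of EXOC1. The median size of the difference over the 72 tested events of the 4 genes was 1.54 percentage points, beside 0.934 over all events.

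Depletion of AKAP8 gave no call among the 4 genes in either state. In EPI 0 of 68 tested events were called, against 0.0446% of all events, and in MES 0 of 83, against 0.0506%. At shares this low, 0 calls cannot set the members apart from other events. The paper reported more events in each state at the same cutoffs with rMATS. With the limma-moderated quasi-binomial test, 5 of the 68 (7.35%) had an unadjusted p under 0.05, beside 3.72% of all events. In MES 11 of the 83 (13.3%) had one, 8 of them in SEC31A, beside 3.17% of all events. Limma on the logit of the inclusion read share also called 0 in each state. It called 0 events over all genes there, so it cannot set the members apart. The knockdown and control libraries did not overlap for 6 of 68 events in EPI (8.82%, against 6.76% of all events) and for 23 of 83 in MES (27.7%, against 24.1%). The median size of the difference was 0.728 percentage points in EPI and 1.08 in MES, beside 0.777 and 1.01 over all events. The MES knockdown tables hold 2 libraries on each side, since the third MES control is listed only in the EMT tables.

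**Figure D3:**
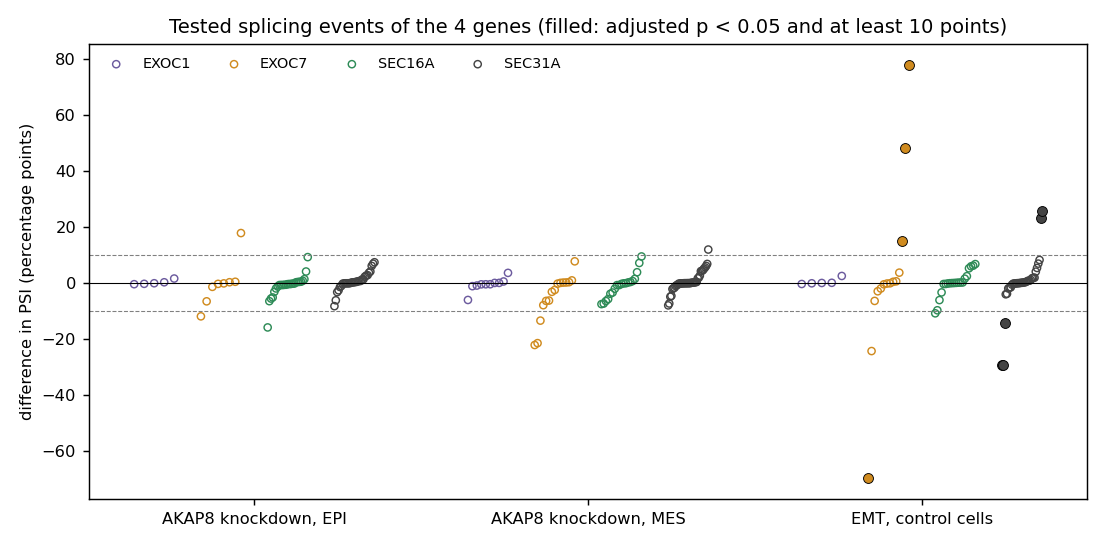
Difference in PSI in percentage points (y axis) of every tested event of the 4 genes in the 3 comparisons (x axis), sorted within each gene, with dashed lines at 10 points in either direction. Filled points passed the test, 9 in EMT and 0 in each knockdown.

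The events that moved in EMT were measured in the knockdown too, and those comparisons share control libraries with the EMT comparison. PSI of the 342-nt SEC31A exon was 72.8%, 75.4% and 72.2% in EPI_shAKAP8, all above the 3 EPI_Control libraries, a difference of 6.09 percentage points (standard error 1.48, adjusted p = 0.761). In MES_shAKAP8 it was 45.1% and 42.4%, above the 41.3% and 34.0% of the MES_Control libraries of that table, a difference of 6.09 percentage points (standard error 3.89, adjusted p = 0.812). Of the events of the 4 genes, only this one and its 297-nt form had no overlap in either state, and neither was called. These forms share junction reads and are not separate observations. Of all events, 6.76% had no overlap in EPI and 24.1% in MES. The share of all events without overlap in both states was not counted, so these forms cannot be set against it.

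For the 39-nt exon of SEC31A the knockdown differed from control by 4.09 percentage points in EPI (standard error 2.79, adjusted p = 0.761) and by 5.14 in MES (standard error 3.91, adjusted p = 0.812). The 78-nt exon differed by -1.03 points in EPI (standard error 1.82, adjusted p = 0.893) and by -0.618 in MES (standard error 5.75, adjusted p = 0.989). Read downstream of the 39-nt exon, against the junction that leaves out the 78-nt exon, the 78-nt exon differed by -8.26 points in EPI (standard error 4.13, adjusted p = 0.761) and by -7.31 in MES (standard error 1.17, adjusted p = 0.812). Its PSI there was 80.3%, 66.5% and 73.4% in EPI_Control and 67.2%, 63.1% and 65.1% in EPI_shAKAP8, with overlap. In MES it was 79.5% and 77.6% against 72.0% and 70.5%, with no overlap.

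In EXOC7 the 93-nt exon, read up to the 146-nt exon, stood at 3.36%, 2.34% and 1.64% in EPI_shAKAP8, inside the range of the controls. In MES_shAKAP8 it stood at 17.2% and 13.2%, below both controls of that table, a difference of -6.38 percentage points (standard error 2.31, adjusted p = 0.812). The third MES_Control library, listed only in the EMT table, stood at 9.54%, below both knockdown libraries, so with it the groups overlapped. Read up to the 69-nt exon, it was 31.5%, 37.7% and 34.1% in EPI_shAKAP8, above the 22.0%, 8.76% and 9.84% of EPI_Control. That event had only 17, 13 and 12 reads in the knockdown libraries, fell under the 20-read minimum and was not tested in EPI. In MES it was 74.5% and 88.6%, a difference of -7.91 points (standard error 9.48, adjusted p = 0.812).

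The smallest adjusted p of any member event in the EPI knockdown, 0.247, belonged to the 69-nt exon of EXOC7, which was singled out after its values were seen. Between the 168-nt and the 146-nt exon its PSI was 5.17%, 16.5% and 12.2% in EPI_Control and 9.24%, 1.35% and 3.68% in EPI_shAKAP8, with overlap and a difference of -6.54 percentage points. Of the EXOC7 events in the MES knockdown, a retained intron at chr17:74083735-74084643 had the largest difference. Its PSI was 100% and 75.0% in the controls and 78.9% and 51.9% in MES_shAKAP8, a difference of -22.1 points (standard error 18.4, adjusted p = 0.8), on 12 to 41 reads per library, and the groups overlapped.

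The events with the largest difference in the other genes were not called either. The share of a 219-nt exon of SEC16A (chr9:139348561-139348779) against the 83-nt exon stood at 40.4%, 51.5% and 17.9% in EPI_Control and 37.1%, 9.29% and 15.9% in EPI_shAKAP8 (adjusted p = 0.906). In MES it stood at 22.7% and 9.16% against 9.22% and 41.6% (adjusted p = 1). A 93-nt exon of SEC31A at chr4:83766354-83766446, listed only in the MES knockdown table, stood at 89.1% and 72.7% against 88.1% and 97.5% (adjusted p = 0.812). The 45-nt exon of EXOC1 differed by 1.59 points in EPI (standard error 4.26, adjusted p = 0.766) and by -6.05 in MES (standard error 1.89, adjusted p = 0.812). In MES it stood at 15.1% and 16.5% in the controls of that table and at 11.5% and 7.96% in MES_shAKAP8, without overlap, while the third MES_Control library stood at 7.87%.

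Whether the knockdown acted differently in the 2 states was tested by the interaction of state and knockdown. It called 0 of 58 events of the 4 genes, against 0.00989% of all events, a share at which 0 calls cannot set the members apart. An unadjusted p under 0.05 was found for 3 of the 58 (5.17%) with the limma-moderated test, beside 5.29% of all events. The smallest belonged to the EXOC7 93-nt exon read up to the 69-nt exon, where the knockdown effect in MES minus that in EPI was -30.7 percentage points (adjusted p = 0.81).

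The EMT comparison was also made in the knockdown libraries, EPI_shAKAP8 against MES_shAKAP8, an addition made after the data had been seen. In these libraries 6 of 61 events of the 4 genes were called, against 1.2% of all events. The 342-nt exon of SEC31A differed by -29.7 percentage points (adjusted p = 2.53e-10), the 39-nt exon by 31.3 (adjusted p = 9.13e-12), the 78-nt exon by 25.8 (adjusted p = 1.9e-10) and the 93-nt exon of EXOC7 read up to the 146-nt exon by 12.8 (adjusted p = 1.49e-06). Read up to the 69-nt exon it differed by 47.1 points and was not called (adjusted p = 0.0823).

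The 60-nt exon of SEC16A was called in the knockdown libraries. Its PSI was 73.7%, 84.4% and 85.8% in EPI_shAKAP8 and 54.2% and 55.1% in MES_shAKAP8, with no overlap and a difference of -26.7 percentage points (adjusted p = 9.06e-04). The difference from the -10.8 points of the control libraries is what the interaction tests, and it was not called there (-15.9 percentage points, adjusted p = 0.81).

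At the level of whole genes, SEC31A was the only one of the 4 called in EMT. Gene levels were taken as the scaled SE junction reads of a gene and called at an adjusted p under 0.05 and a log2 fold change over 1. SEC31A stood at 10145, 11480 and 11554 scaled reads in EPI_Control and 27481, 27540 and 21307 in MES_Control. The groups did not overlap, and the log2 fold change was 1.19 (standard error 0.17, limma adjusted p = 2.27e-04). Of all genes 12.5% were called in this comparison. These reads include those of the events whose splicing changed, and the part that this has in the level was not tested.

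The other members moved less with EMT. EXOC1 differed by 0.36 on the log2 scale (standard error 0.30, adjusted p = 0.423), EXOC7 by 0.28 (standard error 0.18, adjusted p = 0.290) and SEC16A by 0.19 (standard error 0.14, adjusted p = 0.347). EXOC1 ran from 793 to 1497 scaled reads in EPI_Control and from 1296 to 1644 in MES_Control, with overlap. EXOC7 ran from 1311 to 1488 in EPI_Control and from 1502 to 1785 in MES_Control, close together but without overlap.

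In the AKAP8 knockdown no member was called in EPI, where 0.189% of all genes were, or in MES, where 2.27% were. With limma, 2 of the 4 genes had an unadjusted p under 0.05 in each state, beside 9.87% of all genes in EPI and 21.8% in MES. SEC16A stood at 2844, 2834 and 2566 scaled reads in MES_Control and at 4129 and 5403 in MES_shAKAP8. Both knockdown libraries lay above the controls, with a log2 fold change of 0.78 (standard error 0.16, adjusted p = 0.0156) that stayed under the cutoff of 1. SEC31A differed by 0.47 in EPI (standard error 0.17, adjusted p = 0.345) and by 0.42 in MES (standard error 0.19, adjusted p = 0.210).

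**Figure D4:**
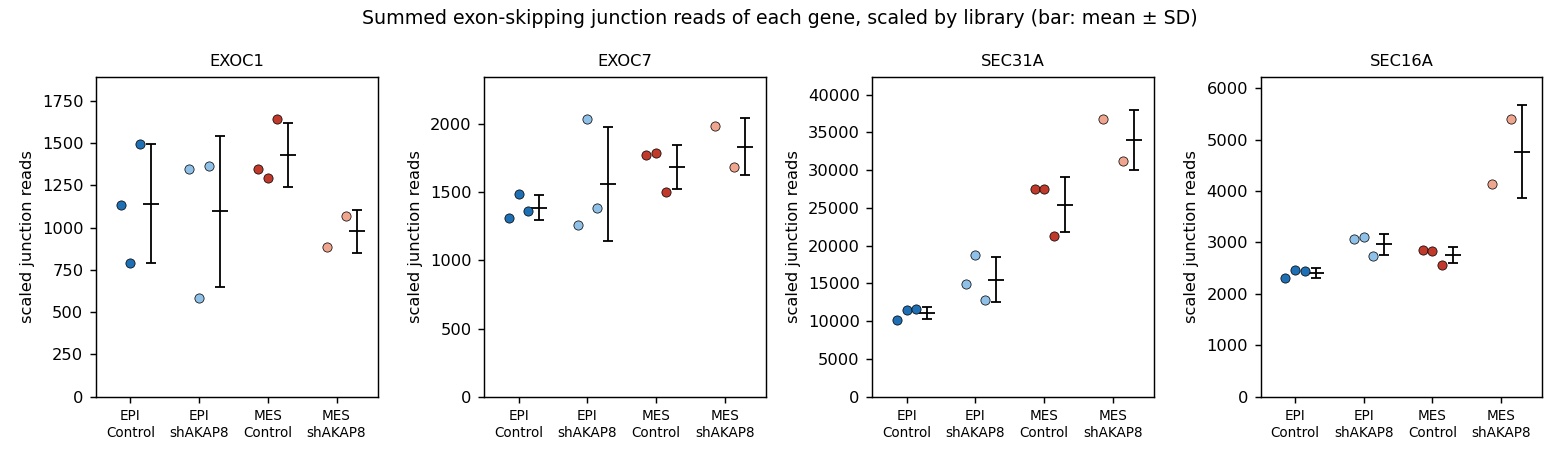
Scaled SE junction reads (y axis, linear from 0, a separate range for each gene) of EXOC1, EXOC7, SEC31A and SEC16A in each library, by RNA-seq group (x axis), with the group mean ± SD. SEC31A goes from a mean of 11060 in EPI_Control to 25443 in MES_Control, and SEC16A from 2748 in MES_Control to 4766 in MES_shAKAP8.

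Other genes of both machineries were read in the same way, beside the 12.5% of all genes called in EMT, and no list stood above that share of calls. Of 12 measured COPII coat genes, EMT raised 1, SEC31A itself, and lowered 0, with a median log2 fold change of 0.34 beside 0.01 over all genes. SEC24D, a cargo-binding coat subunit, differed by 0.79 (adjusted p = 0.00312) and SEC23B, its inner-coat partner, by -0.69 (adjusted p = 0.00582), both under the fold cutoff. Among 7 exocyst subunits 0 were called (median 0.04), and among 8 GTPases that act with the exocyst 1 rose (RAB8B, log2 fold change 1.24, adjusted p = 0.00145). Among 11 COPII regulators and cargo receptors 0 were called (median 0.03). With limma, an unadjusted p under 0.05 was found for 7 of the 12 COPII coat genes (58.3%), beside 36.3% of all genes. It was found for 14.3% of the exocyst subunits, 37.5% of the GTPases and 18.2% of the regulators and cargo receptors.

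In the knockdown, 0 genes of these lists were called in either state. The median log2 fold change of the COPII coat genes was 0.42 in EPI and 0.33 in MES, beside -0.01 over all genes in each state, and 6 of the 12 in EPI and 5 in MES had an unadjusted p under 0.05 with limma, beside 9.87% and 21.8% of all genes. SAR1A, the GTPase that starts coat assembly, stood at 1535, 1671 and 1766 scaled reads in EPI_Control and at 2356, 2747 and 2399 in EPI_shAKAP8 (log2 fold change 0.59, adjusted p = 0.0803). In MES it differed by 0.66 (adjusted p = 0.0278), which passed the test but not the fold cutoff. The exocyst subunits had medians of -0.11 in EPI and -0.54 in MES, and EXOC6B was the 1 subunit that passed the adjusted p in MES, under the fold cutoff (-0.64, adjusted p = 0.0448). The lowest in MES was EXOC5, another core subunit (-1.18, standard error 0.43, adjusted p = 0.134), and the highest was EXOC3 (0.35, adjusted p = 0.356). With limma, 3 of the 7 subunits (42.9%) in MES and 1 (14.3%) in EPI had an unadjusted p under 0.05, beside 21.8% and 9.87% of all genes.

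Markers of both states were set beside these levels. In the knockdown 0 markers were called in either state. The 5 epithelial markers had a median log2 fold change of -0.41 in MES, from -0.95 to -0.22, and of 0.09 in EPI, from -0.13 to 0.48. The 7 mesenchymal markers had medians of 0.40 in MES, from -1.02 to 0.81, and of 0.22 in EPI, from -0.30 to 1.37. ZEB2 (-1.02) and ZEB1 (-0.67) were lower in the MES knockdown, while the other mesenchymal markers were higher. Summed scaled reads of the epithelial markers were 547 to 896 in MES_Control and 451 to 660 in MES_shAKAP8, and 7353 to 8774 in EPI_Control and 8044 to 9807 in EPI_shAKAP8. Those of the mesenchymal markers were 2916796 to 5306525 in MES_Control and 4664981 to 6079561 in MES_shAKAP8, and 690717 to 1572291 in EPI_Control and 880737 to 1594530 in EPI_shAKAP8. FN1 alone held 2773062 to 5158246 scaled reads in MES_Control and 4467023 to 5886503 in MES_shAKAP8, so the mesenchymal sums mostly give its level. The part of the markers in the levels of the COPII and exocyst genes was not tested.

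Splicing of the same lists was called in EMT for 2 genes besides the members, beside the 1.52% of all events that were called. SEC24B, a cargo-binding COPII subunit, had 1 mutually exclusive event that rose by 11.9 percentage points (adjusted p = 0.00993), out of 100 events tested in 9 other coat genes. PDCD6 (ALG-2), a calcium-binding protein that binds SEC31A, had 2 overlapping mutually exclusive events that fell by 10.2 and 10.3 points (adjusted p = 0.00572 and 5.79e-04), out of 118 events in 13 other regulators and cargo receptors. Of 26 events in 6 other exocyst subunits and 41 in 9 GTPases, 0 were called. In the knockdown of either state 0 events of these lists were called, beside 0.0446% of all events in EPI and 0.0506% in MES.

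No AKAP8 eCLIP peak that met the cutoffs of the study, a log2 of IP over input of at least 2 and a -log10 adjusted p of at least 3, lay over any of the 4 genes in either state. Such peaks numbered 21665 in EPI and 26228 in MES, and 19.6% and 11.9% of 9789 protein-coding genes with an SE event held at least 1. Among all deposited peaks, 1 in EPI and 3 in MES lay over EXOC7 on its own strand, and 0 lay over EXOC1, SEC31A or SEC16A. All 4 lay in the intron between the 168-nt and the 93-nt exon, and 3 of them each overlapped an exon of 1 annotated transcript.

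The MES peak at chr17:74087361-74087428 ended 44 nt upstream of the 93-nt exon, with a log2 of IP over input of 1.64 and a -log10 adjusted p of 2.40. The EPI peak at chr17:74088926-74088977 lay 1609 nt upstream of the exon, with 2.18 and 1.57, so it met the first cutoff and missed the second. Both are printed 5′ to 3′ on the transcribed strand because they are the binding signal nearest to the exon that changed most. Capitals mark 4 G-run motifs searched on that strand, which may overlap each other. These were AGGG beside TGGG, with the G-run last, as well as GGGA beside GGGT, with the G-run first.
EXOC7 MES peak: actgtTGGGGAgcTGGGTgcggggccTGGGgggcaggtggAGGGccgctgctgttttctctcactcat
EXOC7 EPI peak: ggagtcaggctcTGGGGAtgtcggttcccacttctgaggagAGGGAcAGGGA

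Each of these peaks held 6 motif matches. Of the deposited peaks within 5 nt of the same width, 99.1% in MES and 98.9% in EPI held at least 1 of the motifs, so a match is common to the peaks of these data. The other 2 MES peaks lay 1924 and 2113 nt upstream of the 93-nt exon, with a log2 of 1.38 and 0.90, and held 0 and 3 matches.

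**Figure D5:**
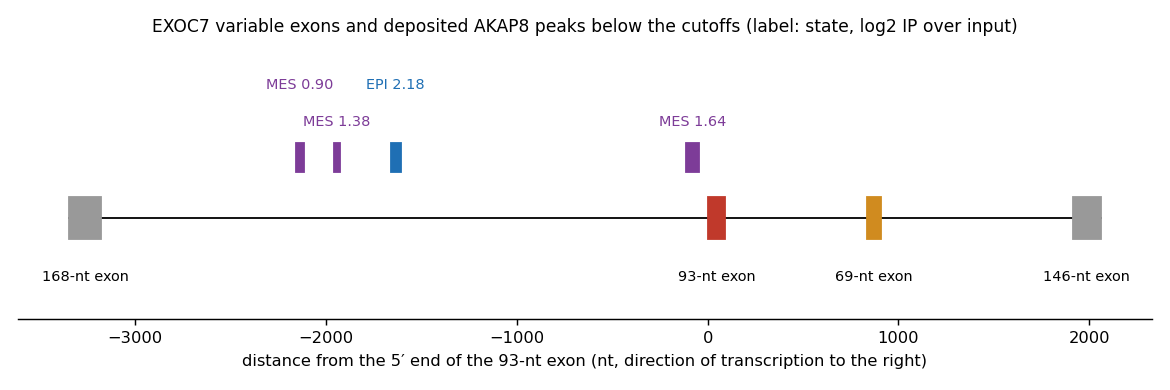
Map of the variable stretch of EXOC7 in the direction of transcription, with the distance in nt from the 5′ end of the 93-nt exon on the x axis. Boxes on the line are the 168-nt, 93-nt, 69-nt and 146-nt exons, and boxes above it are the 4 deposited AKAP8 peaks, labelled by state and log2 of IP over input (0.90 to 2.18), all upstream of the 93-nt exon.

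EXOC1 and SEC16A had no called EMT event and were left out here. For the strongest called EMT event of EXOC7 and of SEC31A, the SE events of other genes with the most similar PSI were named. For the EXOC7 93-nt exon read up to the 69-nt exon they were exons of CTNND1 (p120 catenin, an adherens junction protein; Pearson r = 0.975 over 11 libraries), TBC1D23 (r = 0.975) and CLSTN1 (r = 0.972), among 29136 events. The CTNND1 exon went from 21.9% in EPI_Control to 91.2% in MES_Control. The EXOC7 event itself held only 12 to 32 reads in each EPI library, control and knockdown. For the 297-nt form of the SEC31A exon they were exons of CD44 (a cell surface receptor for hyaluronan; r = 0.979), TMPO (r = 0.967) and SLK (r = 0.964), among 29119. The CD44 exon went from 29.0% to 0.812%. These libraries fall into the same 2 states for every event, so such values mainly order events by that contrast.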

How the data were processed

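Poly(A) RNA-seq of 11 libraries and eCLIP of 8 were processed by the authors. Per the labels and the methods, STAR aligned them to GRCh37, and rMATS counted the junction reads of 5 event types. The deposited tables list these reads library by library, with the libraries of a group in 1 field and no replicate number, so that a replicate number here is a place in that list. Control reads were identical in the knockdown and EMT tables. PSI was recomputed from reads and effective lengths. The 30 deposited columns of per-library PSI, the columns of p-values, FDR and PSI differences, and the gene table of fold changes, which the authors made with DESeq2 and featureCounts 1.5.0 and whose symbols were not intact, were not used.

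rMATS could not be rerun from its tables. Inclusion and skipping reads of every event were compared by a quasi-binomial likelihood-ratio F test, with the dispersion moderated by limma 3.58.1 (squeezeVar, robust trend on the reads of the rarer form, never below 1) in R 4.3.3, and Benjamini-Hochberg adjustment within each event type. Differences are knockdown minus control and MES minus EPI, and their standard errors come from the spread of PSI between libraries. Gene levels were the summed reads of 33107 SE events, divided by median-of-ratios factors, for 9016 genes with at least 10 scaled reads in at least 2 libraries, tested with limma (trend) on log2(value + 1). A read can count for several events.

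For the peaks, the authors deposited a -log10 adjusted p and the log2 ratio of IP to input, in lists merged over replicates, which carry no spread. Gencode v44, lifted to the files' build GRCh37, gave gene and exon positions. Scripts were tested on simulated data. The members, gene lists and tests were chosen with earlier results of these data known. Events were named where called, or where they had the largest difference of a gene in a comparison, and the others are given by counts. Alternatives concerned the dispersion model, the test, the read minimum, the PSI threshold and definition, scaling, pseudocount, filters, peak cutoffs and each library left out.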

Additional observations from a re-analysis of the deposited data

Results flagged for a closer look

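The 4 deposited AKAP8 peaks over EXOC7 missed the cutoffs of the comparison and were set apart as signal outside it. Their log2 of IP over input was 2.18 for the EPI peak and 1.64, 1.38 and 0.90 for the MES peaks, and their -log10 adjusted p lay below that of most peaks, with 3.07% of EPI peaks weaker than the first and 7.95%, 0.405% and 0.309% of MES peaks weaker than the others. No value per replicate is given for a merged peak, so their spread is not known.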

How the results depend on the processing

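The count of 9 events called in EMT was 7 to 10 under the other read minimums, PSI thresholds, dispersion models and PSI definition, 8 to 10 with 1 library left out and 6 in the knockdown libraries, the last added after the data had been seen. These counts did not hold the same events throughout. The 6 included the 60-nt exon of SEC16A, which was not among the 9. Without EPI_Control replicate 3 or MES_Control replicate 3, the SEC16A event nearest to a call was counted as well. With limma on the logit of the inclusion read share the count was 2, the EXOC7 93-nt exon in both contexts. The other 7 had adjusted p from 0.0759 to 0.169, and the cause was not tested. The PSI differences are the same in both tests by construction. In the knockdown libraries the EXOC7 exon pair lost its call (adjusted p = 0.241).

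Limma on the logit of the inclusion read share called 0 events over all genes in each knockdown and in the interaction. With few events called over all genes, the knockdown counts stayed 0 in EPI and in the interaction under every alternative run. In MES they ran from 0 to 1 with 1 library left out, the 1 being the SEC16A pair of an 83-nt and a 219-nt exon without MES_shAKAP8 replicate 1, where 240 events were called over all genes instead of 30. Gene levels called 1 of the members in EMT and 0 in each knockdown under every alternative run, and the other pathway genes in MES ran from 0 to 1 (EXOC5 without EPI_shAKAP8 replicate 2). The sign of uncalled members turned for EXOC7 in MES with total-read scaling (-0.0017) and for EXOC1 in EPI with only the event of most reads (0.12). With 1 library left out, the log2 fold change of EXOC7 in EPI ran from -0.069 (without EPI_shAKAP8 replicate 2) to 0.28, and that of EXOC1 in EPI from -0.35 to 0.29, above 0 without EPI_Control replicate 3 (0.11) or EPI_shAKAP8 replicate 2 (0.29). Taking all deposited peaks gave 1 over the members in EPI and 3 in MES instead of 0.

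No paired analysis was possible because the tables list the libraries of a group in 1 field without replicate numbers, and the groups could not be matched by number. Depth limits the EXOC7 events that join the 93-nt to the 69-nt exon, with 5 to 32 reads per EPI_Control library, and 2 libraries per group limit the MES knockdown.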
